A study of Mus musculus with 2 samples.

Results

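Chaperones are proteins that help other proteins fold, keep them from clumping and hand them on for refolding or destruction. The 82 genes described here are the protein-coding genes of GENCODE release M21 (mouse build GRCm38) whose symbols start with Dnaja, Dnajb, Dnajc, Hspa, Hspb, Hsph, Hspd, Hspe or Hsp90, with Cct2 to Cct8 and Tcp1, out of 21755 protein-coding genes on 20 chromosomes. They were chosen by symbol and not by any measured value, though with earlier results of these data known. By family they comprised 4 Dnaja, 13 Dnajb and 28 Dnajc genes, and 14 Hspa and Hsph genes. The 8 genes named Hspb with a number were grouped, by symbol alone, as small heat shock protein genes. The rest were 3 Hsp90 genes, Hspd1 and Hspe1, 8 genes of the CCT ring, and Hspbp1 and Hspbap1. Hspbp1 and Hspbap1 carry the Hspb prefix but encode proteins that bind heat shock proteins. Cct6a is a processed transcript in this annotation and was therefore not a member. No member lay on chromosome X.

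The measurement was in situ Hi-C, in which DNA of fixed nuclei is cut and religated so that sequences near each other in space are joined and counted. Mature olfactory sensory neurons, the odour-detecting cells of the nose, were isolated by fluorescence-activated sorting from olfactory epithelium. The mice were adults of both sexes, of a strain not specified in the labels, and carried a conditional Ldb1 knockout driven by OMP-Cre, a recombinase active in mature olfactory neurons. Ldb1 is a cofactor that joins transcription factors bound at distant sites. There were 2 biological replicates of 1000000 cells each, both knockout, whose contacts the authors pooled before calling 1 list of boundaries. No control group was analysed here, and a boundary list holds no expression, so neither the loss of Ldb1 nor the cell type could be checked against marker genes.

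A boundary is a position that few contacts cross, so that the chromatin on either side forms separate neighbourhoods. The list holds 7610 bins of 5 kb on 20 chromosomes, each with the authors' boundary strength, a score, and a class, strong or weak. The classes divide at a score of 0.5, and the median over the list was 0.538. Because there is 1 pooled list, values carry no replicate error and no test was made. The sequencing depth is unknown. Exact 95% binomial intervals cover counting error only and treat genes as independent.

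The machinery works in relays. Proteins with a J domain (the Dnaj genes) bring clients to Hsp70 (most Hspa genes) and switch on its ATPase. Hsp110 (Hsph1 among others) helps Hsp70 release its nucleotide. Hsp90 matures kinases and hormone receptors, Hsp60 and Hsp10 (Hspd1 and Hspe1) form a folding chamber in mitochondria, and the CCT ring, built from the Cct gene products and Tcp1, folds actin and tubulin in the cytosol. Small heat shock proteins (most of the Hspb genes) hold unfolded proteins without using ATP. In long-lived or stressed neurons these genes are known as guards against protein aggregation.

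Many chaperone genes started at a boundary, among them 5 of the 8 CCT ring genes, both cytosolic Hsp90 genes and the Hsp70 gene Hspa8. Others lay far from one, such as Hspa5 and the neighbouring genes Hspa1a and Hspa1b. Over the whole list, 25 of 82 start sites (30.5%, interval 20.8 to 41.6%) lay in a boundary bin or within 10 kb of one, which is called here being at a boundary. The share over all protein-coding genes was 14.3%. The 25 members stood at 25 different boundaries on 15 chromosomes. At a strong boundary were 17 members (20.7%, interval 12.6 to 31.1%) against 9.3% of all genes, and at a boundary of score 1 or more 10 members (12.2%) against 4.03%. Inside the bin itself were 12 members (14.6%, interval 7.80 to 24.2%) against 3.86%.

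The members also lay nearer to boundaries by distance. The median distance from start site to nearest bin was 38.2 kb (range 0 to 294 kb) for the members and 56.6 kb for all genes. Within 50 kb were 49 members (59.8%) against 45.3% of all genes, and 15 members (18.3%) lay more than 100 kb from any boundary against 26.8%. To the nearest strong boundary the medians were 79.1 kb and 101 kb. The strength of the nearest boundary, wherever it lay, had medians of 0.646 for members and 0.659 for all genes, although that boundary was strong for 60 of 82 members (73.2%) against 63.3%. The member just inside the 10 kb window was Dnajb13, which encodes a protein of sperm and cilia (9.96 kb), and the members just outside it were Hspb8 (12.1 kb) and Hspa14 (12.2 kb).

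**Figure D1:**
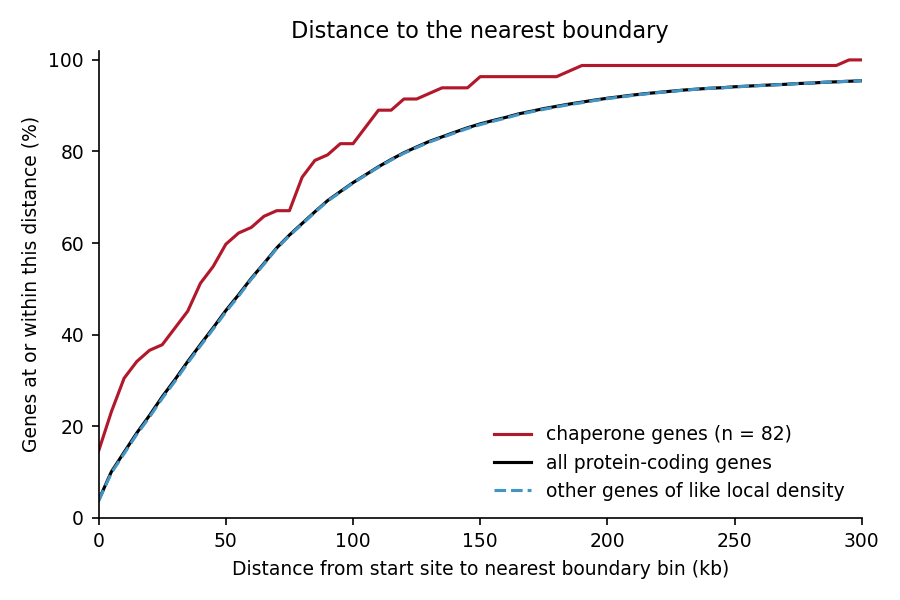
The share of genes (vertical axis, percent) whose start site lies at or within a given distance of the nearest boundary bin (horizontal axis, kb), for the 82 chaperone genes, all 21755 protein-coding genes, and other genes of like local density. At 10 kb the curves stand at 30.5%, 14.3% and 14.0%, and the curves of all genes and of genes of like density overlie each other.

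Local gene density was counted as the other protein-coding start sites within 100 kb. Chaperone genes had a median of 4 such neighbours and all genes 3. Genes were split into 10 equal classes by this number, of which 8 remained after ties, and the other genes of each class were weighted by the members in it. Of other genes of like local density 14.0% were at a boundary, which would give 11.5 of 82, so the members' share was 16.5 percentage points higher (ratio 2.17). For strong boundaries the share of like genes was 9.02% (ratio 2.30), and for the bin itself 3.73% (ratio 3.93). The median distance of like genes was 57.0 kb. In 7 of the 8 classes the members' share was above that of other genes. The exception was the densest class, with 11 to 25 neighbours, where 0 of 7 members were at a boundary against 12.2% of other genes. Hspa1a, Hspa1b, Hspa1l, Hspb6, Dnajc4, Dnajc5g and Dnajb2 made up that class.

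**Figure D2:**
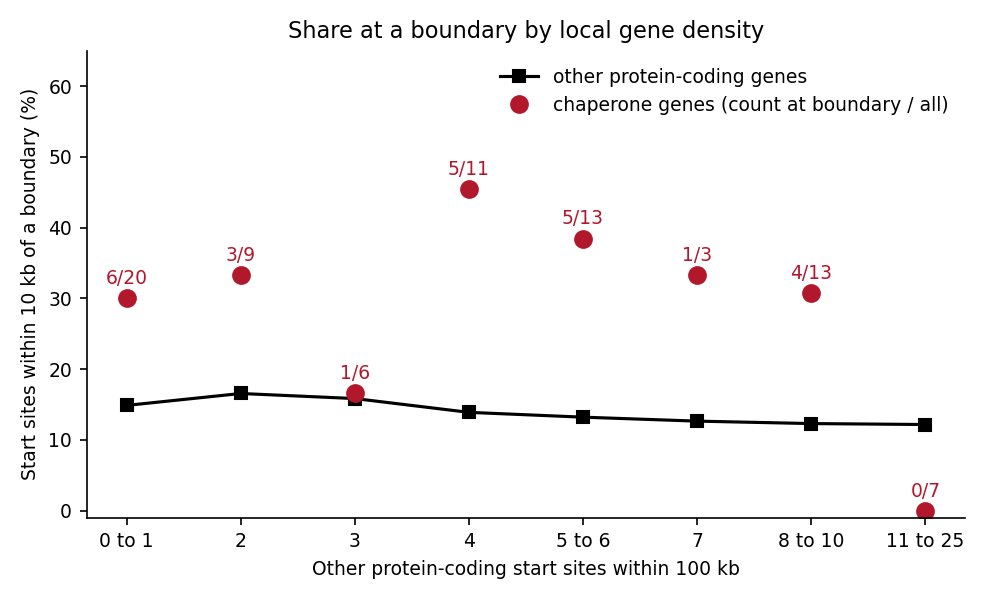
Share of start sites within 10 kb of a boundary (vertical axis, percent) by the number of other protein-coding start sites within 100 kb (horizontal axis). Squares are other protein-coding genes and circles are chaperone genes, with the count at a boundary over all members of the class. Other genes run between 12.2% and 16.6%, and the circles lie above them in every class but the last, which has 0 of 7.

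Among the J-domain proteins, the largest group, 14 of 45 start sites were at a boundary (31.1%), and 6.34 would be at the share of like genes. Dnajb12, whose product sits in the membrane of the endoplasmic reticulum, had the strongest boundary of any member at its start site (strength 1.80, percentile 95.5 of the list; chromosome 10, 59875001 to 59880000, over an exon of Dnajb12). Dnajb1, the main cytosolic partner of inducible Hsp70, lay in the bin of a weak boundary (0.299). Its neighbour Tecr started 222 bases away on the opposite strand and in the same bin. Dnajb3 lay 4.22 kb from a weak boundary (0.240) and 99.2 kb from the strongest boundary of the whole list (4.13). Dnajb genes had 4 of 13 at a boundary, 1.83 being the number at the share of like genes, and a median distance of 32.8 kb. The farthest of them was Dnajb8 (107 kb).

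The Dnajc genes, a mixed group joined by the J domain alone, had 9 of 28 at a boundary against 3.91 at the share of like genes, and 7 of the 9 boundaries were strong. Of these 9 start sites, 7 lay inside the bin, as did 26.9% of all genes at a boundary. They were Dnajc27, a small GTPase with a J domain (strength 1.18), Dnajc8, a partner of the spliceosome (1.08), Dnajc1, an endoplasmic reticulum protein (1.04), the mitochondrial Dnajc11 (0.953), Dnajc16 (0.883), Dnajc17 (0.879) and the endosomal Dnajc13 (0.595). All 7 of these boundaries were strong, as was the boundary for 64.8% of all genes starting inside a bin. Dnajc5b, a relative of the synaptic vesicle chaperone Dnajc5, had its weak boundary (0.395) 1.41 kb inside the gene, and the import motor gene Dnajc19 had one 8.68 kb upstream (0.242). Dnajc5 itself was 79.5 kb from a boundary. The farthest was Dnajc24 (181 kb).

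Of the 4 Dnaja genes, partners of cytosolic or mitochondrial Hsp70, 1 was at a boundary against 0.598 at the share of like genes. Dnaja4 had a strong boundary (0.791) 1.13 kb downstream of its start, in its own intron. The strongest boundary nearest to any member belonged to Dnaja1 (2.48, percentile 99.3 of the list), but it stood 42.2 kb away. Dnaja2 was 125 kb from a boundary.

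Genes of the Hsp70 and Hsp110 group fell at both ends of the range. Hspa8, which encodes the constitutive Hsc70, started inside a strong bin (strength 1.33; chromosome 9, 40800001 to 40805000), in which it was the only protein-coding start site within 10 kb. Hspa9, which encodes the mitochondrial Hsp70, started 0.644 kb from a strong boundary (1.34). The other 12 genes of the group were not at one. Hspa5, which encodes BiP of the endoplasmic reticulum, was 107 kb from a strong boundary (1.64), and Hspa13 and Hspa4l were 187 and 294 kb from theirs. Hspa4l was the farthest of all members. With 2 of 14 at a boundary, the number at the share of like genes (2.00), and a median distance of 81.6 kb against 56.4 kb for like genes, this group as a whole lay no nearer to boundaries than like genes. Hsph1 was 38.6 kb from a boundary.

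The stress-inducible pair Hspa1a and Hspa1b lay together with Hspa1l in a gene-dense stretch of chromosome 17. Their start sites were 147, 134 and 148 kb from the same strong boundary (0.562), in a stretch of 345 kb between flanking boundaries that held 36 protein-coding start sites. These 3 genes span 13.5 kb and are not independent points. Hspd1 and Hspe1 also share a position, with start sites 111 bases apart on opposite strands, and lay 103 kb from a weak boundary (0.397). No other members were within 20 kb of each other, so the 82 genes make 79 loci.

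Of the 3 Hsp90 genes, both cytosolic ones started inside a bin, the inducible Hsp90aa1 (strength 0.460; chromosome 12, 110700001 to 110705000) and the constitutive Hsp90ab1 (0.291; chromosome 17, 45570001 to 45575000). For neither was a RefSeq start matched within 1 kb, so both places in a bin rest on the 5′ ends of the GENCODE records. The same limit holds for the places of Hspa8, Hspa9, Cct4, Dnajc11 and Dnajc5b at their boundaries. Both boundaries were weak, and the nearest strong ones were 142 and 157 kb away. Hsp90b1, the form of the endoplasmic reticulum, was 35.5 kb from a strong boundary (0.746).

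The CCT ring was the group with most start sites at boundaries for its size among those of 4 or more genes. It had 5 of 8 at a boundary (62.5%, interval 24.5 to 91.5%) against 1.12 at the share of like genes, and a median distance of 7.66 kb against 55.6 kb. Cct4 (strength 1.61), Cct3 (1.53), Cct8 (1.25) and Cct7 (1.02) each had a strong boundary upstream of the start site, at 5.52, 2.12, 4.13 and 6.51 kb. Cct2 had a weak one (0.434) 8.81 kb downstream, over its own exon. Cct5 was outside the window, with a strong boundary (1.57) 18.2 kb upstream, and Cct6b was 24.3 kb from a weak one (0.414). Tcp1, which encodes the alpha subunit, was 75.7 kb from a weak boundary (0.478) and 511 kb from any strong one, the greatest such distance of any member, and its flanking boundaries were 1400 kb apart. The ring genes lie on 8 different loci and share no boundary. Cct6a, by its start in this annotation, was 158 kb from a weak boundary (0.338), and the ring relative Cct8l1, also not a member, 101 kb (0.410). With these 2 added, 25 of 84 start sites were at a boundary (29.8%).

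Small heat shock protein genes had 2 of 8 at a boundary against 1.08 at the share of like genes. Hspb9 was 3.85 kb from a strong boundary (0.643) over an exon of Kat2a, and Hspb1, which encodes the widely expressed Hsp27, was 7.92 kb from a weak one (0.382) at the edge of the shortest interval that held a member (90 kb). Hspb11 was the farthest (78.6 kb). Hspbap1 and Hspbp1 were 64.6 and 120 kb from a boundary. Differences between families were not tested, and most families are small.

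**Figure D3:**
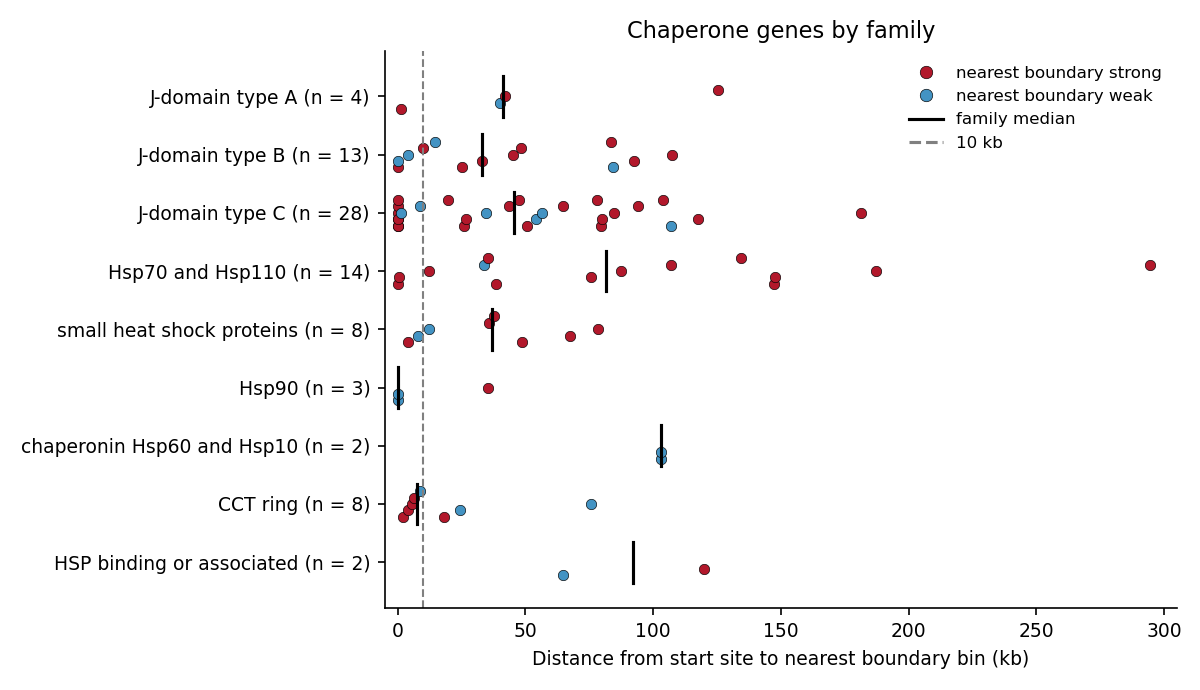
Distance from the start site to the nearest boundary bin (horizontal axis, kb) for each of the 82 genes, by family. Points are coloured by the class of that boundary, black lines are family medians and the dashed line marks 10 kb. The CCT ring has 5 of 8 points left of the line, and the Hsp70 and Hsp110 group has 2 of 14, with its median at 81.6 kb.

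Boundaries at chaperone start sites ran from weak to strong. The 25 had strengths of 0.240 to 1.80 with a median of 0.879, and 17 (68.0%) were strong. The 2369 boundaries with any protein-coding start site within 10 kb had a median of 0.666 and 63.6% strong, and all boundaries had 52.9% strong. The strongest were those at Dnajb12, Cct4, Cct3, Hspa9 and Hspa8, and the weakest those at Dnajb3 and Dnajc19.

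**Figure D4:**
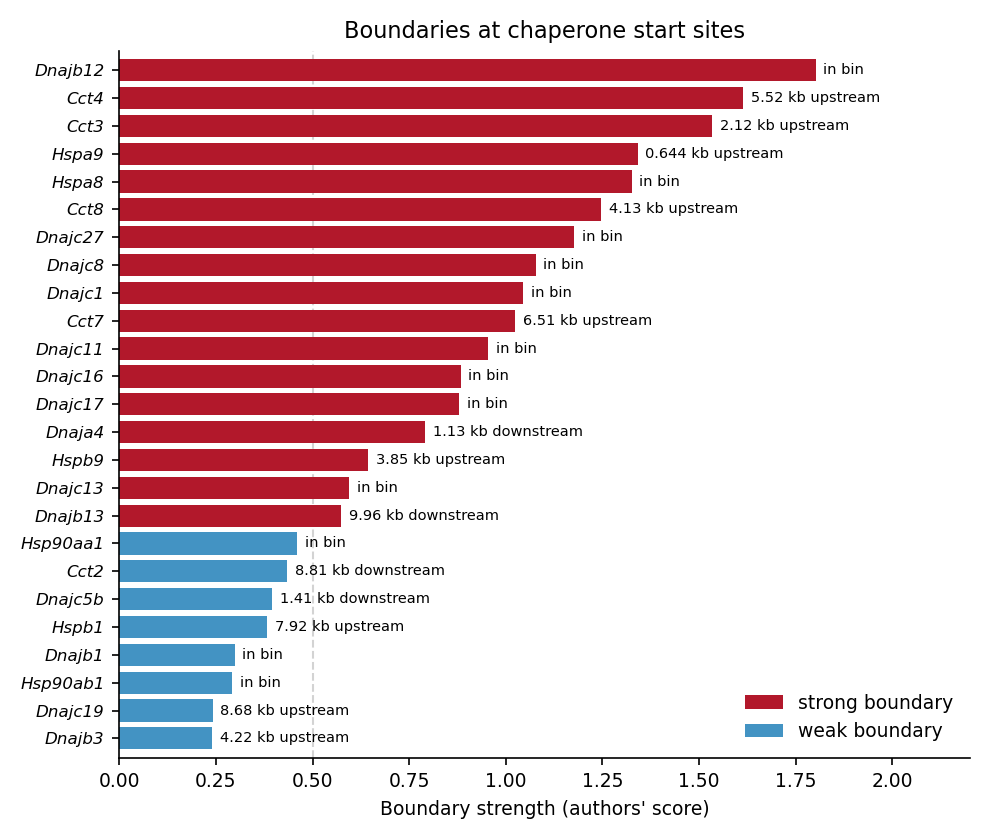
Boundary strength (horizontal axis, the authors' score) for the 25 chaperone genes whose start site is in or within 10 kb of a boundary bin, with the distance and side of the boundary beside each bar. The dashed line at 0.5 divides strong from weak boundaries. The bars run from 1.80 at Dnajb12 to 0.240 at Dnajb3, and 17 are strong.

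The bin overlapped the chaperone gene's own body in 16 of 25 cases (64%), 14 times over an exon and 2 times in an intron alone, against 53.9% of all genes at a boundary. A start site inside the bin makes this so for 12 of the 16. Of the 13 members starting outside the bin, 4 overlapped it (30.8%), against 36.9% of all such genes. In 5 cases it overlapped exons of a neighbour only, such as Tsacc beside Cct3 and Commd1 beside Cct4, and in 4 it lay outside protein-coding genes. For 19 of the 25 (76%) no protein-coding start site lay nearer to the boundary, against 79.0% of all genes at one. For 13 (52%) it was the only start site within 10 kb, against 56.9%. Of the 13 start sites outside the bin, 9 had the boundary upstream and 4 downstream. Among all genes at a boundary but outside the bin, 1268 had it upstream and 1009 downstream. Counting all members, 20 of 82 gene bodies (24.4%) held a boundary, against 16.2% of all genes and 15.5% of genes of like density. The 4 among them that were not at a boundary by their start site were Hspa4, Hspa12a, Dnaja3 and Cct6b.

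Promoters of chaperone genes had a higher median content of CpG dinucleotides than all genes, though not in every family. CpG are the sites of DNA methylation that cluster in promoters of broadly active genes. In windows of 250 bases before to 50 bases after the GENCODE start, the ratio of observed CpG to that given by base composition had a median of 0.752 for members and 0.530 for all genes. It was 0.849 for members at a boundary and 0.723 for the others, against 0.698 and 0.494 for all genes at and not at one. By family, the small heat shock protein genes (0.439) and the Dnaja genes (0.471) were below the median of all genes. For the Dnaja genes the CpG content differed with the start used. The GENCODE windows of Dnaja1, Dnaja2 and Dnaja4 held 11, 44 and 3 CpG. The 250 bases before their RefSeq starts held 20, 32 and 23, and Dnaja3 had no matched entry. The window of Hsp90aa1 held 2 CpG (ratio 0.140) and that of Hsp90ab1 24 (0.754). In the 250 bases before the RefSeq start (GRCm38.p6), the 61 members matched to an entry had from 1 CpG (Dnajb7) to 39 (Dnajc13). The following 4 of these promoters were chosen after their values were seen and are shown with CpG in capitals. They have high and low CpG counts both at and far from boundaries. Dnajb12 and Dnajb13 are at boundaries and have 23 and 7 CpG. By the ratio in its GENCODE window, Dnajb13 (0.658) was above the median of all genes. Dnaja2 and Dnajb8, 125 and 107 kb from one, have 32 and 6.

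Dnajb12 promoter, chr10:59879333-59879582, forward strand: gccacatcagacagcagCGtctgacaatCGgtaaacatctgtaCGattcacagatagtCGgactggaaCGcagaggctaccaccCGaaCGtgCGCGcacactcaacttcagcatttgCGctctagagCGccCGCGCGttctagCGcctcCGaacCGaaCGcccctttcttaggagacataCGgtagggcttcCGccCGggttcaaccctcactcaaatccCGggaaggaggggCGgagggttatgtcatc
Dnajb13 promoter, chr7:100514816-100515065, reverse strand: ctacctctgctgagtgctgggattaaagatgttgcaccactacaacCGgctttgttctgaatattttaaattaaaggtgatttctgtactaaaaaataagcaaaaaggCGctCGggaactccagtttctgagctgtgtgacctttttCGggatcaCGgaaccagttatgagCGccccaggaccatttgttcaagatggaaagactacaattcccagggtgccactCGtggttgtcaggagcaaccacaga
Dnaja2 promoter, chr8:85555362-85555611, reverse strand: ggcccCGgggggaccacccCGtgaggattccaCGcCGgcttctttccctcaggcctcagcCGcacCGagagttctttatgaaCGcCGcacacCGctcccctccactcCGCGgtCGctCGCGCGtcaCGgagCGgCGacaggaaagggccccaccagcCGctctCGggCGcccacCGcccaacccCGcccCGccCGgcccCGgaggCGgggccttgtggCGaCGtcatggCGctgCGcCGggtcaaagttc
Dnajb8 promoter, chr6:88222018-88222267, forward strand: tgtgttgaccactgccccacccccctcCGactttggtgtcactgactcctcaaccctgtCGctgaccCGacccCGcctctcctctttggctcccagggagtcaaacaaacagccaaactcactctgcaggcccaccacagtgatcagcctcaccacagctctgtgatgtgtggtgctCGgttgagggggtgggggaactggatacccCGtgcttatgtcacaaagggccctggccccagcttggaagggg

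Chaperone genes more often had a close start site on the other strand than all protein-coding genes did. Starts on either side were counted, and whether promoters are shared was not tested. A protein-coding start site on the opposite strand lay within 1 kb for 24 of 82 members (29.3%, interval 19.7 to 40.4%), against 10.9% of all protein-coding genes and 11.1% of genes of like local density. Such neighbours included Fam173b beside Cct5 (48 bases), the proteasome gene Psmc2 beside Dnajc2 (32 bases) and Zfp830 beside Cct6b (24 bases). Hspd1 and Hspe1 were such neighbours of each other, as were Hspa1a and Hspa1l. Of these 24 members, 4 were at a boundary (16.7%), against 22.1% of all 2382 genes with such a neighbour. Of the 58 members without one, 21 were (36.2%), against 13.4% of all genes without one. When the other genes were matched on local density and also on having such a neighbour, 15.9% of them were at a boundary, and the members' share was 14.6 points higher. This measure was chosen after seeing the data.

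The heat shock element, bound by heat shock factors, was searched as 3 adjoining NGAAN units in alternating orientation, in either phase and so on both strands. RefSeq promoters were matched for 61 members, and 3 of them (4.92%) held the element, against 61 of 14239 promoters of protein-coding genes (0.428%). They are shown with the element in capitals. Hspe1 held 2 overlapping matches, the first 89 bases before its start, Dnajb6 held 1 at 46 bases before, and Hsph1 held 1 beginning at base 37 of the transcript. In windows around the GENCODE starts, which differ from the RefSeq ones for some genes, 1 of 82 members (Hspe1, 1.22%) and 0.478% of all genes held it. None of the 3 genes was at a boundary, at 103, 84.3 and 38.6 kb. Of the 25 members at a boundary, 18 had a matched RefSeq promoter, and Hspa8, Hsp90aa1 and Hsp90ab1 were among those without. The RefSeq promoters of Hspa1a, Hspa1b, Hspb1 and Dnajb1 held no match to this exact pattern.

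Hspe1, chr1:55088055-55088080, forward strand: tccgTTCTAGAACCTTCCGGAAggcc
Dnajb6, chr5:29735848-29735868, forward strand: ccgaGAATCTTCCGGAAcgct
Hsph1, chr5:149636287-149636304, reverse strand: cagaTTCTGGAAAGTTCt

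CTCF, the protein that stops the extrusion of loops by cohesin, was represented by its consensus on either strand. A match is a sequence and not a binding measurement. It lay in or within 10 kb of 5 of the 25 boundaries at members (20%), against 27.4% of the boundaries with a protein-coding start site and 24.4% of all boundaries. These were the boundaries at Dnajb12, Dnajc11, Hsp90aa1, Hsp90ab1 and Hspa8. No member's promoter window held the consensus, and 0.561% of all windows did. Of the 6 matches, 1 was in the bin itself, 3 pointed away from the bin and 2 toward it. The match in the bin lay 0.380 kb from the GENCODE start of Hsp90aa1. Hspa8 had 2, at 0.475 and 1.56 kb beyond its bin, the nearer pointing toward it and the other away. These 3 are shown from the genome sequence (GRCm38.p6), read 5′ to 3′ on the strand of the match with 10 bases on each side and the consensus in capitals.

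Hsp90aa1, chr12:110703098-110703129, reverse strand: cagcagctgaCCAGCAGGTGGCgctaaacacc
Hspa8, chr9:40805465-40805496, reverse strand: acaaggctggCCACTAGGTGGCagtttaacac
Hspa8, chr9:40806546-40806577, forward strand: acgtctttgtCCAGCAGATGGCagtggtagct

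Other genes of the chaperone system, from a list of 58 with symbols outside the rule, had 16 start sites at a boundary (27.6%), 12 of them strong, with a median distance of 37.0 kb. At the share of genes of like local density, 14.2%, the number would be 8.24. The group of prefoldin genes and CCT partners had 5 of 13, among them the CCT regulators Pdcl (strength 3.23) and Pdcl3 (1.69), and Mkks (1.32). None of its prefoldin genes (Pfdn1, Pfdn2, Pfdn4, Pfdn5, Pfdn6 and Vbp1) was at a boundary, with distances from 23.6 kb (Pfdn4) to 116 kb (Vbp1). Partners of Hsp70 and nucleotide exchange factors had 3 of 13, namely Stip1, which links Hsp70 to Hsp90 (1.75), the ubiquitin ligase gene Stub1 (0.850) and Bag1 (0.746). Partners of Hsp90 had 4 of 16, with the kinase co-chaperone Cdc37 (0.721), Chordc1 (1.13) and Unc45b (0.626) at strong boundaries. The lens crystallin gene Cryaa (1.77), the heat shock factor binding protein gene Hsbp1 (1.30) and the mitochondrial unfoldase gene Clpx (0.620) were also at strong ones. Of 6 genes for heat shock factors and their regulators, Hsbp1 was the only one at a boundary. None of the 4 J-domain genes with other names was.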

How the data were processed

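The 2 biological replicates, both knockout, form 1 group. Per the labels, the authors combined their contact pairs into 1 matrix, computed diamond insulation scores and called boundaries on it, on build GRCm38 per the submitters' processing notes. The caller, its version and settings are not stated in the labels. Deposited boundary strengths, a score per bin from the authors, served to describe and rank bins inside this list alone.

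Start sites are the 5′ ends of GENCODE M21 gene records, and distance runs to the nearest edge of the bin. Members and lists were chosen with earlier results of these data known, and comparisons are descriptions with no p-value. Named genes are every member at a boundary, the nearest and farthest of each family, genes within 20 kb of each other and 11 fixed genes, plus pathway genes at strong boundaries; others were named after their values were seen. The distance and density functions were tested on simulated data. Python 3.11.15, numpy 2.4.6, pandas 2.3.3, scipy 1.17.1, pyfaidx 0.9.0.4 and matplotlib 3.10.9 were used.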

Additional observations from a re-analysis of the deposited data

How the results depend on the processing

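No paired analysis was possible because both samples belong to the knockout group, and leaving out a replicate was not run, since boundaries were called on their combined contacts. Of 45 alternatives, 40 left the value within the 95% interval of the main one, including all 7 chosen after seeing the data. Some of the 40 could not differ and say nothing of robustness. No member lay on chromosome X, so taking autosomes alone left the members' own shares and median distance as they were. Where only genes not at a boundary were dropped or added, the share of strong boundaries stayed at 68%. The share of boundaries at members that are strong was 68% against 64.96% over all genes at a boundary, but within 25 kb it was 64.5% against 65.1%, so that small difference changed sign. The 5 others changed the window or the list itself. The share of members at a boundary was 14.6% inside the bin, 59.8% within 50 kb and 12.2% for boundaries of score 1 or more. The share at a strong boundary was 10.98% inside the bin and 42.7% within 50 kb. The difference from genes of like local density ranged from 10.9 to 17.6 percentage points over 14 alternatives, and was 17.6 points with 1 member for each of 79 loci.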

Other observations

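By windows around the GENCODE starts, members at boundaries were found at every level of promoter CpG. Genes were split by CpG ratio into 3 classes of like size. In the highest class 15 of 43 members and 19.8% of other genes were at a boundary. In the middle class 7 of 29 members and 14.1% of other genes were, and in the lowest class 3 of 10 members and 8.93%. These 3 were Hsp90aa1, Dnaja4 and Dnajc5b, and their low class rests on the GENCODE starts. Hsp90aa1 and Dnajc5b had no matched RefSeq promoter. That of Dnaja4 held 23 CpG, against 3 in its GENCODE window. Matched on local density and CpG class, 16.3% of other genes were at a boundary, 14.2 points below the members. This comparison was chosen after seeing the data.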
